A study of Homo sapiens with 4 samples.

Results

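The genes described here are the transcription factors of the Snail, ZEB and Twist families (SNAI1, SNAI2, SNAI3, ZEB1, ZEB2, TWIST1 and TWIST2) together with VIM and FN1, which encode vimentin and fibronectin. They were chosen by symbol, with earlier results of these data known, and each of the 9 was found by its Ensembl identifier among the 58735 genes of the deposited count files. The study measured polyadenylated RNA in A549 cells, a line derived from a human lung adenocarcinoma. Both groups were infected with a lentivirus and are labelled day 2. The shControl group carries a control hairpin and the genotype label WT, and the shRALY group carries a hairpin against RALY, which encodes an hnRNP-type RNA-binding protein, and the genotype label RALY knockdown. There were 2 libraries in each group. The labels name 1 hairpin for each group and 1 cell line, and do not state whether replicates came from different cultures. The p-values therefore reflect only how far these 4 libraries vary, which may be technical variation.

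The Snail and ZEB proteins are zinc finger repressors that bind E-box sequences in the promoters of epithelial genes such as CDH1, which encodes E-cadherin, and recruit histone-modifying corepressors. The Twist proteins are basic helix-loop-helix factors that bind E-boxes as dimers with E proteins. When these factors act in epithelial cells, the cells can lose their junctions and gain mesenchymal features, a change called epithelial-mesenchymal transition. Vimentin, an intermediate filament protein, and fibronectin, a glycoprotein of the extracellular matrix bound by integrins, are its standard mesenchymal markers, and A549 cells are often used to study it.

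Total counts ranged from 16745818 to 18632787 per library. RALY itself stood at 123 and 133 CPM (the count of a gene scaled to library size, after TMM normalisation) in shControl and at 40.9 and 41.5 CPM in shRALY, which gave a log2 fold change of -1.64 (SE 0.11, adjusted p = 5.85e-11 in edgeR, by its quasi-likelihood test with Benjamini-Hochberg adjustment). Of 7 listed epithelial markers, KRT7 was abundant in all libraries at 2868 to 3583 CPM, as were KRT8 and KRT18, whose counts are uncertain because 22.1% and 21.7% of their 50-base words occur in other genes, while EPCAM had 39 to 65 counts and SLPI 1 to 13 counts. The summed level of 9 fibroblast markers was 36.5 and 35.3 CPM in shControl and 25.8 and 28.2 CPM in shRALY, most of it from COL1A1 and THY1, with DCN at 0 or 1 count and COL1A2 at 0 to 2 counts. The summed level of 6 endothelial markers ranged from 0.245 to 1.06 CPM, and that of 8 immune markers, mostly CD14, from 5.69 to 8.70 CPM, with CD3E and MS4A1 at 0 counts in all libraries. Values are from bulk RNA, in which fewer cells of a type and less RNA per cell cannot be told apart.

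SNAI1, SNAI2, ZEB2 and VIM rose in shRALY and TWIST1 and TWIST2 fell, while SNAI3, ZEB1 and FN1 did not pass the test. All 9 genes had enough counts to be tested. The 4 rises stand against 20.6% of the 15912 tested genes called higher at an adjusted p under 0.05, and the 2 falls against 20.4% called lower. In all, 41.0% of tested genes were called. The median log2 fold change was 0.32 over the 9 genes and -0.012 over all tested genes. The libraries of the groups did not overlap for 6 of the 9 genes, against 69.7% of tested genes. The largest shifts were in low-abundance factors. The abundant markers VIM and FN1 moved by 1.25-fold or less.

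**Figure D1:**
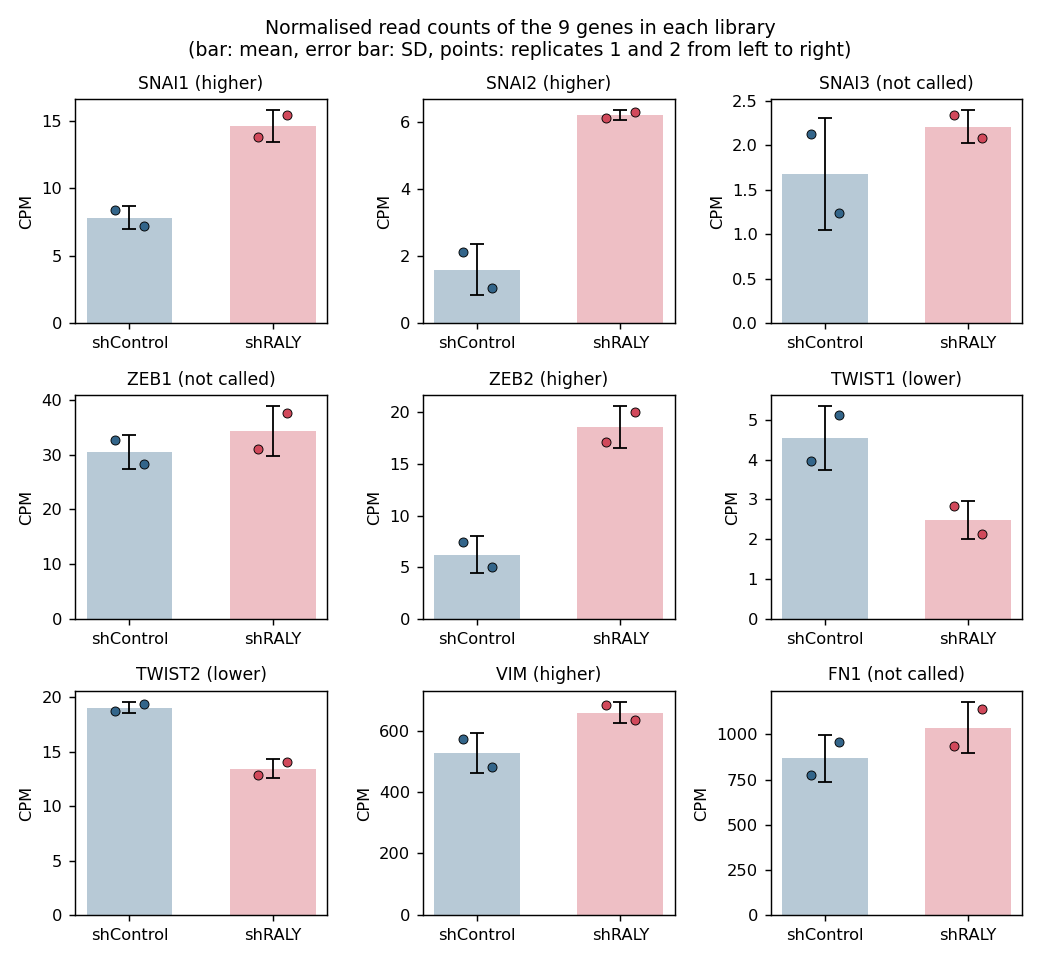
Normalised read count (CPM, vertical axes from 0, a separate scale for each gene) of the 9 genes in shControl (blue) and shRALY (red), with bars at the mean of 2 libraries, error bars at 1 SD and points for replicates 1 and 2. SNAI2 lies between 1.06 and 2.12 CPM in shControl and at 6.09 and 6.30 CPM in shRALY, whereas the FN1 libraries of the groups overlap.

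Among the Snail genes, SNAI2 showed the largest fold change of the 9 genes, and SNAI1 rose by a smaller factor from a higher start. SNAI2, which encodes Slug, maps to chromosome 8 (48917604 to 48921740, minus strand) (GRCh38, here and below). It had 38 and 18 counts in shControl and 112 and 103 in shRALY, or 2.12 and 1.06 CPM against 6.09 and 6.30 CPM. Both shRALY libraries lay above both shControl libraries, and the shControl libraries differed from each other by more than the shRALY ones did. Its level was 3.86-fold higher in shRALY, which gave a log2 fold change of 1.95 (SE 0.31, adjusted p = 2.09e-05 in edgeR), and this value was higher than those of 97.6% of tested genes. Without shControl replicate 1 the log2 fold change of SNAI2 was 2.54, and without shControl replicate 2 it was 1.56, with the call kept in both cases (adjusted p = 1.08e-07 and 0.000123 in edgeR).

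SNAI1, which encodes Snail, a repressor of CDH1 with a very short-lived protein, maps to chromosome 20 (49982999 to 49988886, plus strand). It had 151 and 123 counts in shControl and 254 and 253 in shRALY, or 8.43 and 7.22 CPM against 13.8 and 15.5 CPM. The groups did not overlap. The gene was 1.87-fold higher, which gave a log2 fold change of 0.90 (SE 0.18, adjusted p = 0.000424 in edgeR). SNAI3, the least studied Snail gene, maps to chromosome 16 (88677682 to 88686493, minus strand). It stood at 2.12 and 1.23 CPM in shControl and 2.34 and 2.08 CPM in shRALY. The groups overlapped, since shControl replicate 1 lay above shRALY replicate 2. Its log2 fold change was 0.39 (SE 0.38, adjusted p = 0.44 in edgeR), so a change of the size seen for SNAI1 was within the error at 21 to 43 counts per library. SNAI3-AS1 was not called either (log2 0.37, adjusted p = 0.312 in edgeR), but passed without shControl replicate 2 (log2 0.84, adjusted p = 0.0302 in edgeR). This antisense gene overlaps 9.41% of the exonic bases of SNAI3 and had more counts (53 to 96) than SNAI3 itself, and whether reads in the overlap were told apart by strand is not given in the sources used here.

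The microRNA miR-34a is known to target SNAI1, and its host gene MIR34AHG was measured. MIR34AHG stood at 21.3 and 14.6 CPM in shControl and 25.2 and 26.5 CPM in shRALY, which gave a log2 fold change of 0.52 (SE 0.16, adjusted p = 0.0133 in edgeR). Both shRALY libraries were above both shControl libraries, but the gene was not called when shControl replicate 2 was left out (adjusted p = 0.0997 in edgeR), nor without shRALY replicate 2 (adjusted p = 0.0909 in edgeR). Mature microRNAs were not measured, because poly(A)-selected libraries of long fragments do not sample them. The mature miR-34a sequence (RefSeq, GRCh38.p14, chr1:9151735-9151756, minus strand) and its single seed match in the 3′ UTR of SNAI1 (chr20:49988127-49988148, plus strand) are shown because host and target both rose. Capitals mark the seed, bases 2 to 8 of the microRNA, and the complementary letters in the target.
hsa-miR-34a-5p: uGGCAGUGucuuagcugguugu
SNAI1 site: accccacatccttctCACTGCC
The letters CACTGCC occurred in the longest annotated 3′ UTR of 15.8% of 19146 protein-coding genes, on the transcript strand. They occurred 1 time each in SNAI1, SNAI3 and ZEB1, and in none of the other 6 genes.

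Of the ZEB genes, ZEB2 rose about 3-fold and ZEB1 did not pass the test. ZEB2, which encodes a repressor also known as SIP1, maps to chromosome 2 (144364364 to 144524583, minus strand). It had 134 and 85 counts in shControl and 315 and 327 in shRALY, or 7.48 and 4.99 CPM against 17.1 and 19.99 CPM. Both shRALY libraries were more than 2-fold above both shControl libraries. The log2 fold change was 1.57 (SE 0.20, adjusted p = 1.19e-06 in edgeR), or 2.97-fold higher, above 96.4% of tested genes. ZEB1, its paralog and a repressor of CDH1, maps to chromosome 10 (31318495 to 31529814, plus strand). It stood at 32.7 and 28.3 CPM in shControl and 31.1 and 37.5 CPM in shRALY. The groups overlapped, and the log2 fold change was 0.17 (SE 0.14, adjusted p = 0.354 in edgeR). The ratio of ZEB2 to ZEB1 counts within a library, which does not depend on library scaling, was 0.229 and 0.176 in shControl and 0.552 and 0.533 in shRALY.

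Both ZEB transcripts are classic targets of the miR-200 family, whose mature members are shown with their seeds in capitals, because both ZEB genes carry several matches to these seeds, while ZEB2 was called and ZEB1 was not. The first 3 share the seed AAUACUG and the other two share AACACUG (RefSeq, GRCh38.p14; miR-200b, miR-429 and miR-200a on chromosome 1, miR-200c and miR-141 on chromosome 12).
hsa-miR-200b-3p: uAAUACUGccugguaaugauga
hsa-miR-200c-3p: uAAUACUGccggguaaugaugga
hsa-miR-429: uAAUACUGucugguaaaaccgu
hsa-miR-200a-3p: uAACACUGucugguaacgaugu
hsa-miR-141-3p: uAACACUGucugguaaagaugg
The letters CAGTATT, which pair with the first seed, occurred 6 times in the 3′ UTR of ZEB1 and 5 times in that of ZEB2. By comparison 16.0% of protein-coding genes, with 3′ UTRs of any length, had at least 1 match and 0.0366% had 5 or more. The 3′ UTRs searched were 2549 bases long in ZEB1 and 5370 bases long in ZEB2. The letters CAGTGTT, which pair with the second seed, occurred 3 times in ZEB1 and 4 times in ZEB2, and 18.3% of genes had at least 1 match. FN1 carried 2 matches to the first seed and SNAI2 carried 1, and the other 5 genes carried none to either seed. For each ZEB gene, 1 site per seed shows the match in capitals, at chr10:31527712-31527733 and chr10:31528782-31528803 on the plus strand for ZEB1 and at chr2:144389053-144389074 and chr2:144388711-144388732 on the minus strand for ZEB2.
ZEB1 first seed: atgctaaatccgcttCAGTATT
ZEB1 second seed: tgagatttgatttaaCAGTGTT
ZEB2 first seed: cgcactaccatacatCAGTATT
ZEB2 second seed: agtgccatccttgtaCAGTGTT
The matches are a description of the letters and not evidence of binding in these cells. MIR200CHG, the annotated host of miR-200c and miR-141, had 0 counts in every library. Its level was thus below 0.161 to 0.179 CPM (3 counts), and MIR205HG likewise had 0 counts. No host gene of miR-200b, miR-200a or miR-429 was listed, so the members on chromosome 1 were not examined.

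The ZEB genes each have an antisense neighbour. ZEB1-AS1, which starts beside ZEB1 and overlaps 4.23% of its exonic bases, stood at 3.57 and 3.52 CPM in shControl and 2.77 and 2.38 CPM in shRALY, without passing the test (log2 -0.46, SE 0.29, adjusted p = 0.229 in edgeR). ZEB2-AS1, with 50.4% of its own exonic bases overlapped by other genes, overlaps 5.18% of those of ZEB2 and had 0 counts in every library. The RNA annotations RF01984 and RF01987 also had 0 counts. They share 128 and 78 exonic bases with ZEB2-AS1, on the same strand, and 4 and 19 with ZEB2, on the opposite strand. The counting did not assign reads to ZEB2-AS1, and whether overlapping reads were discarded is not given in the sources used here.

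The Twist genes fell, by smaller factors than those by which SNAI2 and ZEB2 rose. TWIST2 was the most abundant of the 7 factors per length in shControl. It maps to chromosome 2 (238848032 to 238910543, plus strand) and stood at 18.7 and 19.4 CPM in shControl against 12.8 and 14.1 CPM in shRALY. The groups did not overlap, and the fall was 1.42-fold (log2 -0.50, SE 0.16, adjusted p = 0.0139 in edgeR). TWIST1, whose product shares the helix-loop-helix domain of TWIST2, maps to chromosome 7 (19020991 to 19117672, minus strand). It had 71 and 87 counts in shControl and 52 and 35 in shRALY, or 3.96 and 5.11 CPM against 2.83 and 2.14 CPM. These groups did not overlap either, and the fall was 1.81-fold (log2 -0.86, SE 0.29, adjusted p = 0.0206 in edgeR). The calls were not stable. TWIST1 was no longer called once shControl replicate 2 (adjusted p = 0.145 in edgeR) or shRALY replicate 2 (adjusted p = 0.195 in edgeR) was left out, and TWIST2 without shRALY replicate 1 (adjusted p = 0.199 in edgeR) or 2 (adjusted p = 0.0795 in edgeR). With DESeq2, which called 32.1% of genes, the adjusted p was 0.139 for TWIST1 and 0.0654 for TWIST2. Both genes kept a negative fold change in each of these alternatives. The antisense gene AC003986.2, which overlaps 6.94% of the exonic bases of TWIST1, had 0 or 1 count per library.

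The sequence upstream of TWIST2 is shown as the promoter of the most abundant factor that fell, over the 197 bases that lie outside its annotated exons (RefSeq, GRCh38.p14, chr2:238847835-238848031, plus strand). Capitals mark the GC box GGGCGG on either strand, with adjoining matches.
TWIST2 promoter: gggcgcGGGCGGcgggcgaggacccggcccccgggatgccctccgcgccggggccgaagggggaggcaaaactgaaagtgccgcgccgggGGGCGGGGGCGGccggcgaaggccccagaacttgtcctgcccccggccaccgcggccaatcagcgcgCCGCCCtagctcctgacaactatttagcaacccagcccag
The stretch held 4 GC boxes, and 34.3% of 34788 promoters held at least 1 over the same window. No E-box (CANNTG, found in 54.1%) was spelled in it. The absence of those letters says nothing of the factors that bind them elsewhere. The RefSeq table used holds 5 of the 9 genes, namely ZEB1, ZEB2, TWIST2, VIM and FN1.

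Because CPM depends on transcript length, levels of different genes were compared per kilobase of merged exon. In shControl the order was VIM (102 ± 12.6 CPM per kb, mean ± SD, n = 2), FN1 (50.1 ± 7.48), TWIST2 (10.2 ± 0.274), SNAI1 (4.64 ± 0.507), ZEB1 (3.52 ± 0.357), TWIST1 (2.23 ± 0.398), SNAI3 (0.968 ± 0.363), SNAI2 (0.469 ± 0.222) and ZEB2 (0.249 ± 0.0703). No 2 neighbours in this order had overlapping libraries. In shRALY, VIM (128 ± 6.71 CPM per kb) and FN1 (60.0 ± 8.19) stayed first, SNAI1 (8.69 ± 0.693) stood above TWIST2 (7.16 ± 0.461), and SNAI2 (1.83 ± 0.0427) stood above SNAI3 (1.28 ± 0.106) and TWIST1 (1.22 ± 0.240), whose libraries overlapped. ZEB1 (3.97 ± 0.530) lay between TWIST2 and SNAI2, and ZEB2 (0.741 ± 0.0806) was last. With the length of the longest transcript in place of merged exons, TWIST2 (9.58 CPM per kb) remained above SNAI1 (8.69) in shRALY, so that exchange of places depended on the length used. ZEB2 has 25058 bases of merged exon but a longest transcript of 9583 bases, and by the latter its shControl level (0.651 CPM per kb) was above that of SNAI2 (0.562).

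**Figure D2:**
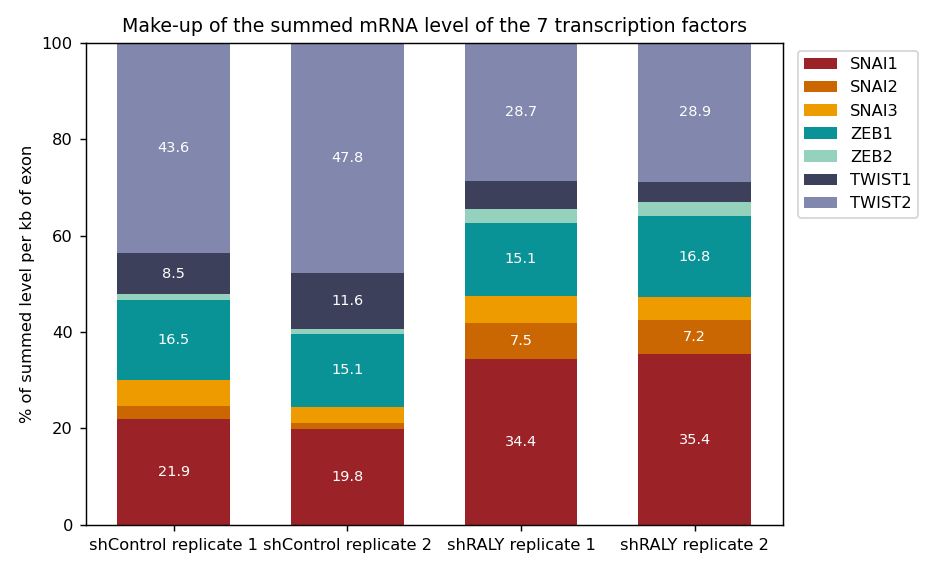
Share of each of the 7 transcription factor genes in their summed level per kb of merged exon (vertical axis, percent), for each library. The Twist genes (dark and light blue) hold 52.2% and 59.4% in shControl and 34.5% and 33.0% in shRALY, and the Snail genes (dark red and 2 shades of orange) hold the larger share in shRALY.

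The summed level of the 7 factors was 22.8 and 21.6 CPM per kb in shControl and 23.8 and 25.9 in shRALY, and the share of the Twist genes in it was lower and that of the Snail genes higher in both shRALY libraries. Snail genes held 30.0% and 24.5% of the sum in shControl and 47.6% and 47.2% in shRALY, and ZEB genes held 17.8% and 16.0% against 17.9% and 19.8%. With the longest transcript as length, Twist genes held 54.8% and 61.9% against 37.0% and 35.3%. Snail genes then held 24.3% and 19.7% against 40.0% and 39.4%, and ZEB genes 20.9% and 18.4% against 23.0% and 25.3%. Within a library, the ratio of SNAI1 to TWIST2 counts was 0.451 and 0.372 in shControl and 1.08 and 1.10 in shRALY, with no overlap. This follows from the rise of SNAI1 and the fall of TWIST2, neither of which overlapped between groups, and adds nothing to them. In contrast the ratio of TWIST1 to TWIST2 counts, 0.212 and 0.263 in shControl and 0.220 and 0.152 in shRALY, overlapped between the groups. These shares and ratios are descriptions without a test.

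VIM, the vimentin gene, was high in every library and rose modestly. It maps to chromosome 10 (17228259 to 17237593, plus strand) and had 10251 and 8182 counts in shControl and 12562 and 10376 in shRALY, or 572 and 480 CPM against 683 and 634 CPM. The groups did not overlap, although the gap between them was smaller than the difference between the shControl libraries. The log2 fold change was 0.32 (SE 0.11, adjusted p = 0.0168 in edgeR), or 25.2% higher. VIM was not called when shRALY replicate 1 was left out (log2 0.28, adjusted p = 0.284 in edgeR), nor without replicate 2 (log2 0.39, adjusted p = 0.1 in edgeR). Other genes on the opposite strand overlap 24.4% of the exonic bases of VIM, so its counts are uncertain. VIM-AS1, itself overlapped over 32.2% of its exonic bases, had 12 to 20 counts and AL133415.1 had 0 counts in every library, and the part of the overlap in the VIM value was not tested.

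FN1, the fibronectin gene, was the member with the most counts and did not pass the test. It maps to chromosome 2 (215360440 to 215436172, minus strand) and had 13901 and 16340 counts in shControl and 17246 and 18625 in shRALY, or 776 and 959 CPM against 938 and 1139 CPM. The groups overlapped, since shControl replicate 2 lay above shRALY replicate 1. The log2 fold change was 0.26 (SE 0.11, adjusted p = 0.0712 in edgeR). FN1 passed in some alternatives, among them without shControl replicate 2 (log2 0.43, adjusted p = 0.000362 in edgeR) and, narrowly, with no filter on low counts (adjusted p = 0.0488 in edgeR). Gene counts do not separate the fibronectin isoforms that include or skip the extra domain exons. The ratio of FN1 to VIM counts was 1.36 and 2.00 in shControl and 1.37 and 1.80 in shRALY, so it varied more between libraries of a group than between groups.

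The promoters of both marker genes are shown because their products are standard mesenchymal markers (RefSeq, GRCh38.p14). The VIM stretch is chr10:17227991-17228240 on the plus strand and the FN1 stretch is chr2:215436173-215436318 on the minus strand, cut where annotated FN1 exons begin. Capitals mark the GC box GGGCGG on either strand.
VIM promoter: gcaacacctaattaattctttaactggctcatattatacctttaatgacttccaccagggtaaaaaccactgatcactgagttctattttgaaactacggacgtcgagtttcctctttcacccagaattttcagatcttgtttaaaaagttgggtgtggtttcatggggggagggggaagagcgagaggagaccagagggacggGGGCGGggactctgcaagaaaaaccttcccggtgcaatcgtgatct
FN1 promoter: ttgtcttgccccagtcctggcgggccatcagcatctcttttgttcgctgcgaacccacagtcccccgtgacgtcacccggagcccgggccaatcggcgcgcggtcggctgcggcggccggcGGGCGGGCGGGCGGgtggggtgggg
VIM held 1 GC box, found in 42.6% of promoters over the same window, and FN1 held 3 overlapping ones, where 25.0% of promoters held at least 1. FN1 also held 1 cyclic AMP response element (TGACGTCA), which 0.423% of promoters held over its window. Neither stretch spelled an E-box (CANNTG), which 61.8% and 44.4% of promoters held over these windows. As for TWIST2, the absence of those letters says nothing of the factors that bind them elsewhere.

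**Figure D3:**
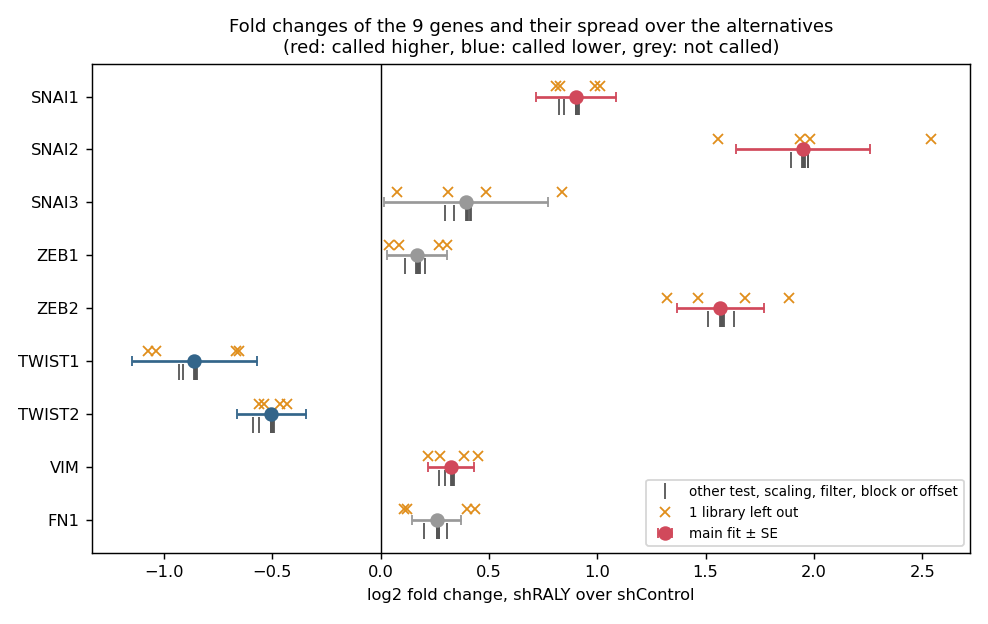
Log2 fold change of shRALY over shControl (horizontal axis) for the 9 genes, with points and bars for the main edgeR estimate and its SE, crosses for the fits that leave out 1 library and ticks for the other alternatives. Every estimate keeps the sign of the main one, and SNAI2 spreads most, from 1.56 to 2.54.

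Genes with the pattern most like the most abundant members were found by the Euclidean distance of centred log2 CPM over the 4 libraries, among protein-coding genes whose mean reached 5 CPM. Those nearest to TWIST2 were IQGAP1, WDR33 and DNAJC22, at distances of 0.0217, 0.0279 and 0.0280. PRR13, ADSS and TAX1BP1 were nearest to VIM, at distances of 0.0263, 0.0266 and 0.0292. SLC6A6, MGRN1 and SHANK2 were nearest to FN1, at distances of 0.0353, 0.0364 and 0.0469. The distances were taken over 10693 genes, and with 4 libraries many genes lie close to any pattern.

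Other mesenchymal genes were called in 1 direction only. Of 24 listed, 21 were tested, 14 were higher and 0 lower, against 20.6% and 20.4% of all tested genes. The median log2 fold change was 0.64 against -0.012 over all tested genes. At an unadjusted p under 0.05 edgeR also had 0 lower, as had DESeq2 after adjustment, while 1 was lower without shControl replicate 1 and 2 with the GC content and length offset. The matricellular genes CTGF and CYR61 rose 2.77-fold and 2.62-fold, CTGF from 33.3 and 31.2 to 89.3 and 89.1 CPM (log2 1.47, SE 0.12, adjusted p = 6.06e-10 in edgeR). SPARC, which binds collagen, stood at 16.4 and 15.5 CPM in shControl and at 42.3 and 41.6 CPM in shRALY. CDH2, which encodes N-cadherin, was 1.39-fold higher (93.6 and 91.3 against 123 and 134 CPM, adjusted p = 0.00118 in edgeR) and is named after its value was seen, as the usual counterpart of CDH1. Without shRALY replicate 2 its adjusted p was 0.0889 in edgeR.

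Epithelial genes of the kind these factors repress did not fall together. Of 25 listed, 16 were tested, 6 were higher and 1 lower, against 20.6% and 20.4% of all tested genes. The median log2 fold change was 0.13. KRT19, a keratin, rose from 90.2 and 101 to 324 and 299 CPM, and the tight junction genes CLDN1 and CLDN4 were 3.36-fold and 2.53-fold higher. CDH1, named after its value was seen as the defining target, had 19.6 and 26.9 CPM in shControl and 29.4 and 34.9 CPM in shRALY, which gave a log2 fold change of 0.47 (SE 0.15, adjusted p = 0.019 in edgeR). Its groups did not overlap, but the call was lost under DESeq2 (adjusted p = 0.052), without shControl replicate 1 (log2 0.25, adjusted p = 0.134 in edgeR) and without shRALY replicate 2 (log2 0.35, adjusted p = 0.253 in edgeR). No alternative gave it a negative fold change. ELF3, an epithelial transcription factor, was the 1 gene called lower, from 156 and 171 to 96.0 and 95.5 CPM (log2 -0.77, SE 0.11, adjusted p = 4.11e-06 in edgeR). The list held 3 lower genes without shControl replicate 1 or with library size alone, and 4 with the GC content and length offset. With the replicate number fitted as a block, the list also held 3 lower genes. The epithelial splicing factor ESRP1 and the epithelial transcription factors GRHL2 and OVOL2 had 0 counts in both shControl libraries. A further fall of these genes, named after their values were seen, could not have been seen.

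More corepressors fell than rose. Of 17 listed and tested, 7 were lower and 2 higher, against 20.4% and 20.6% of all tested genes. The median log2 fold change was -0.29. EZH2, the methyltransferase of Polycomb complex 2, fell from 58.8 and 54.9 to 20.8 and 17.2 CPM (log2 -1.58, SE 0.13, adjusted p = 1.88e-09 in edgeR). SUV39H1, a histone H3 methyltransferase, was 2.81-fold lower, with 20.3% of its exonic bases overlapped by another gene. KDM1A, the demethylase LSD1 that binds the Snail N-terminus, was 1.46-fold lower. AJUBA, an adaptor protein of Snail, rose 1.60-fold. Without shRALY replicate 1, 4 of the list were lower in place of 7, and with either shRALY library left out 1 was higher in place of 2.

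The next list held kinases, ubiquitin ligases and deubiquitinases that act on these proteins. Of 19 listed and tested, 2 were higher and 4 lower, against 20.6% and 20.4% of all tested genes, so the lower count was near the share. The median was 0.073. FBXO45, a substrate receptor of a ubiquitin ligase for several of these factors, fell from 26.5 and 19.7 to 9.96 and 9.60 CPM (log2 -1.24, SE 0.17, adjusted p = 4.33e-06 in edgeR). USP27X, a deubiquitinase that stabilises Snail, was 2.16-fold lower, and CUL1, the scaffold of SCF ligases, 1.56-fold lower. FBXW7, a substrate receptor of SCF ligases, was 1.64-fold higher. The higher count of this list was 5 without shControl replicate 1, and 1 without shRALY replicate 1 or 2.

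Of 22 genes for signals and factors known to induce these genes, 21 were tested, 7 were higher and 3 lower. Over all tested genes 20.6% were higher and 20.4% lower. The median log2 fold change of the list was 0.015. EGR1, an immediate early factor that can activate SNAI1 and SNAI2, went from 0.447 and 0.411 to 12.0 and 14.4 CPM (log2 4.92, SE 0.31). STAT3 and ETS1 rose 1.68-fold and 2.07-fold, and SOX9, a partner of SNAI2, fell 1.93-fold. Without shRALY replicate 2, 4 of the list were higher, and without shRALY replicate 1, 1 was lower. Without shControl replicate 1 or 2, 5 were lower.

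Among the partners and inhibitors of Twist, the E protein gene TCF3 fell and the inhibitor genes ID3 and ID4 rose. Of 11 genes listed, 8 were tested, 4 were higher, 1 was lower and 3 were not called. Over all tested genes 20.6% were higher and 20.4% lower. The median of the list was 0.29. TCF3, which encodes the E proteins E12 and E47 that dimerise with Twist, fell from 88.5 and 111 to 55.2 and 58.8 CPM (log2 -0.81, SE 0.12, adjusted p = 1.19e-05 in edgeR). ID3 and ID4, whose products bind E proteins and keep them off DNA, rose 1.64-fold and 3.45-fold, ID4 from under 2 CPM. SCX, a Twist-related factor of tendon, rose from 0.893 and 1.47 to 4.19 and 4.46 CPM.

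Among the relatives and linkers of vimentin, 10 of 13 were tested, 3 were higher and 2 lower. Over all tested genes 20.6% were higher and 20.4% lower. The median of the list was 0.14. NES, which encodes nestin, fell 4.69-fold, from 6.31 and 6.46 to 1.197 and 1.529 CPM. The neuronal filament gene NEFL rose from 3.52 in both shControl libraries to 8.43 and 9.66 CPM, and GFAP, of glial filaments, rose 2.47-fold. PRPH, which encodes peripherin, was called higher at 0.0558 and 0.235 against 0.598 and 0.856 CPM. Its call was lost without shControl replicate 1 (adjusted p = 0.246 in edgeR), without shRALY replicate 1 or 2 (adjusted p = 0.105 and 0.27 in edgeR) and with no filter (adjusted p = 0.0582 in edgeR), and 56.2% of its exonic bases are overlapped by other genes. All 3 genes called higher were under 10 CPM, and 0 of the list were higher in the fit restricted to genes above 10 CPM. Without shControl replicate 2 the list held 5 higher and 1 lower, and with either shRALY library left out it held 1 lower.

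Several receptors and partners of fibronectin rose. Of 18 listed, 16 were tested, 9 were higher and 2 lower, against 20.6% and 20.4% of all tested genes. The median was 0.67. ITGA5, the alpha subunit of the classic fibronectin receptor, rose from 62.9 and 73.2 to 238 and 254 CPM (log2 1.86, SE 0.11, adjusted p = 6.22e-12 in edgeR), while ITGB1, its beta subunit, did not pass at log2 -0.12 (adjusted p = 0.361 in edgeR). SDC4, a heparan sulfate coreceptor, rose 4.92-fold, and TGM2, a transglutaminase that crosslinks and binds fibronectin, rose from 524 and 599 to 1760 and 2021 CPM. FBLN1, a fibulin that binds fibronectin, fell 1.99-fold. Without shRALY replicate 1 the list held 1 lower gene. ITGB1 was named after its value was seen.

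**Figure D4:**
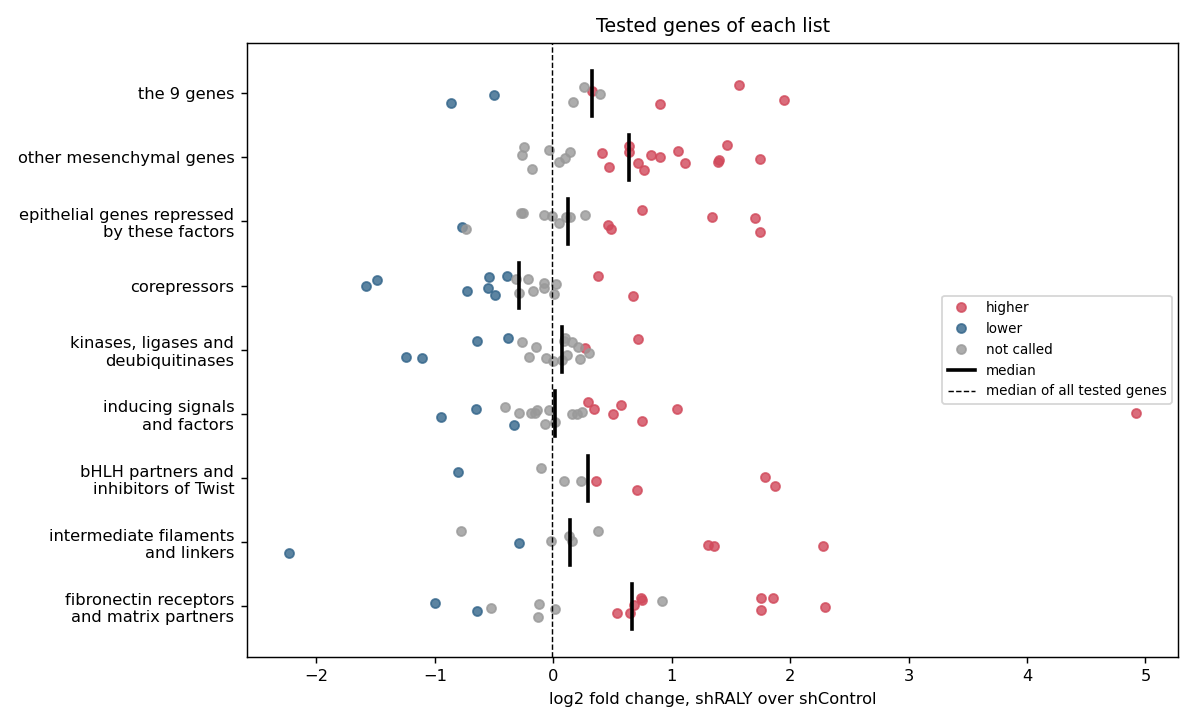
Log2 fold change of shRALY over shControl (horizontal axis) for the tested genes of each list with at least 5 tested members, coloured by edgeR call, with a bar at each list's median and a dashed line at the median of all tested genes. The other mesenchymal genes and the fibronectin partners have medians of 0.64 and 0.67, and the corepressors one of -0.29.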

How the data were processed

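RNA sequencing of 4 A549 libraries was analysed, grouped by sample title into 2 shControl and 2 shRALY. The files deposited by the authors give unnormalised read counts for each Ensembl gene. Per the submitters' processing notes, HISAT2 2.0.5, featureCounts 1.5.0-p3, DESeq2 1.20.0 and hg38 were used, with no role given; the annotation, the strand setting and how overlapping or multiply mapped reads were handled are also not stated there. All 58735 identifiers matched GENCODE 29 (GRCh38). In 1 file, 1 line was split by a space.

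Counts were tested with edgeR 4.0.16 (filterByExpr with minimum count 10 and total 15, TMM, robust quasi-likelihood F-test, 2 residual degrees of freedom), with Benjamini-Hochberg adjustment over 15912 tested genes and a threshold of 0.05. The SE was derived from the fold change and its F statistic. Both edgeR and DESeq2 1.42.0 were tested on simulated data. A count of 0 was given the limit of 3 counts, which covers counting error only. Overlaps and 50-base words shared between genes were computed from GENCODE 29, and the share is given beside named genes of the lists above 20% on either.

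The members and lists were chosen with earlier results of these data known. Named genes are the members, RALY, genes overlapping members, up to 4 genes per list with the smallest adjusted p (or the most abundant, to make 2), and the 3 nearest patterns. Others, markers apart, are said to be named after their values were seen. 1 gene that the rule names is not reported here. Alternatives were DESeq2, RLE, library size alone, 2 other filters, no robust estimation, a replicate block, each library left out, protein-coding genes alone, and a GC content and length offset.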

Additional observations from a re-analysis of the deposited data

How the results depend on the processing

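SNAI1, SNAI2 and ZEB2 kept their direction and call in every alternative that tested them. SNAI2, SNAI3 and TWIST1 were below the filter of 10 CPM in 2 libraries and were not tested there. Under that filter 1 member was lower, and under DESeq2 the count was 0 (DESeq2 counts 2678 genes higher and 2437 lower in all). Leaving out single libraries gave 0 to 2 members lower and 3 to 5 higher. Over all genes it gave 2040 to 3559 higher (3274 with all libraries) and 1897 to 3499 lower (3245 with all libraries), and over all lists together 12 to 29 lower (20 with all libraries). Without shRALY replicate 1 the lists held 12 lower, and with the GC content and length offset they held 32. Library size alone gave 2894 genes higher and 3706 lower. VIM-AS1, not called, had log2 values from -0.45 to 0.19 when single libraries were left out (-0.18 with all), the positive one without shControl replicate 1. Some list counts moved by over 1.5 times: ubiquitin and kinase genes called higher were 1 with library size alone or no filter and 4 with the offset (2 otherwise), Twist partners higher were 2 under the 10 CPM filter (4) and lower 2 with the offset (1), filament genes higher were 5 with the offset (3) and lower 1 under DESeq2 or the 10 CPM filter (2), and fibronectin partners lower were 1 under DESeq2 (2).

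The replicate number was run as a block although the labels do not say that it marks a shared batch. Deviations from the group means correlated at 0.105 across 14251 genes between same-numbered libraries, a value that groups of 2 make equal for both numbers. With the block, 5 members were higher and 2 lower, FN1 being the one added (adjusted p = 0.00411), and 3639 genes were higher and 3619 lower.

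With the length of the longest transcript, levels in CPM per kb in shControl and shRALY were 197 and 247 for VIM, 94.6 and 113 for FN1, 13.6 and 9.58 for TWIST2, 4.86 and 5.47 for ZEB1, 2.72 and 1.49 for TWIST1, and 0.651 and 1.94 for ZEB2, and 2.19 in shRALY for SNAI2. At 18 to 38 counts in shControl, SNAI2 and SNAI3 were limited by depth.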
